A study of Mus musculus with 14 samples.

Results

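Among the genes measured in mouse embryonic stem cells (ESC) and in the embryoid bodies (EB) grown from them, 10 that carry bone morphogenetic protein (BMP) signals or answer to them are described here. They are the BMP ligands Bmp2, Bmp4, Bmp5 and Bmp7, the secreted BMP antagonists Grem1 and Nog, and the Id factors Id1, Id2, Id3 and Id4. The 10 genes were chosen by symbol and are represented by 18 of the 45101 probe sets on the array, and 10 of the 18194 genes with a probe set of a single symbol. All 10 passed the filter on dim probe sets that left 14365 genes for testing. The samples were TKO EB (5 cell lines: 2-55-2, 14-14-4, 7-4-1, Dutch and Ta1-12), TKO ESC (3 lines: 7-4-1, Dutch and Ta1-12), WT EB and WT ESC (3 lines each: B21, J1 and R1), with 1 Affymetrix array for each line and stage. WT lines are wild type, and TKO lines carry the loss of the Rb gene family that the study's title names, that is of Rb1, Rbl1 and Rbl2. Each array is a different clone or line of its group, and the lines 2-55-2 and 14-14-4 were measured as EB only. The day at which EB were collected is not given in the labels used here. Embryoid bodies are aggregates in which stem cells differentiate into a mixture of cell types, and the comparison of TKO with WT lines asks how far that differentiation proceeds without the Rb family.

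BMP ligands are secreted dimers that bring type I and type II receptors together, and the receptors phosphorylate Smad1, Smad5 and Smad9, which enter the nucleus with Smad4. The Id genes are among the most direct targets of these Smads. Id proteins have a helix-loop-helix domain but no DNA-binding region, so that they tie up E proteins and hold back lineage-specific bHLH factors. In mouse ESC, BMP4 acting through Id genes is known to help maintain self-renewal, and in the differentiating embryo BMPs pattern mesoderm and ectoderm while Noggin and Gremlin1 bind BMPs outside the cell and keep them from their receptors. Id2 protein is also known to bind the Rb protein.

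The deposited values are linear intensities of probe sets, with array medians between 83.2 and 107.9. All 6 listed pluripotency markers were measured, and their summed intensity ran from 252.3 to 52489.5 over TKO EB and from 68189.8 to 70640.6 over TKO ESC. Over WT EB it ran from 454 to 1021.5, and over WT ESC from 53163.1 to 71092.7. Among the TKO EB arrays, Dutch and 14-14-4 had the highest sums, 52489.5 and 42731.8. The sums of 2-55-2 (10371.3) and 7-4-1 (2936.3) were lower but also above all WT EB, and only Ta1-12 (252.3) was not. Summed intensity of 6 mesenchyme markers, collagens among them, lay between 26167.6 and 104948.4 in TKO EB and between 222.3 and 556.2 in TKO ESC, and WT arrays held 80514.2 to 100530.1 as EB and 220.2 to 670.9 as ESC. Rbl1 intensity was at most 38.3 on the TKO arrays of lines 2-55-2, 14-14-4 and 7-4-1, but 377.1 on Dutch EB, 250.3 on Dutch ESC, 1095.9 on the EB array labelled TKO Ta1-12 and 492.5 on the ESC array labelled TKO Ta1-12. It was 493 to 1089.6 in WT EB and 355.6 to 693.8 in WT ESC, so that the arrays labelled TKO Ta1-12 lay within the WT range or just above it. Rb1 ran from 115.9 to 912.8 over the TKO arrays and from 138 to 1018.4 over the WT arrays, and Rbl2 from 296.8 to 1098.7 over the TKO arrays and from 411.1 to 1726.9 over the WT arrays. The Rbl1 probe set thus separated 2-55-2, 14-14-4 and 7-4-1 from all WT arrays, while the arrays labelled TKO Ta1-12 were at WT level and Dutch lay between. Rb1 and Rbl2 overlapped between genotypes, and Rb1 was lowest of each stage on the arrays labelled TKO Ta1-12 (300.5 as EB and 115.9 as ESC). Whether the probes of Rbl1, Rb1 and Rbl2 fall inside the deleted parts could not be looked up. Rb1 and Rbl2 thus check nothing, and the Rbl1 signal puts the label of Ta1-12 in doubt but does not settle it. Ta1-12 stands below for the line labelled TKO Ta1-12, and TKO directions are those of the labels. Summed intensity of 6 visceral endoderm markers was 7471.1 to 51313.3 in TKO EB and 349 to 642.1 in TKO ESC, and 15682.3 to 40939.2 in WT EB and 550.9 to 692.2 in WT ESC. For 6 cardiac muscle markers it was 1218.7 to 58447.4 in TKO EB and 408.1 to 751.5 in TKO ESC, and 7068.4 to 43376.1 in WT EB and 570 to 1124.2 in WT ESC. Results that rest on line Ta1-12, or on the EB of Dutch and 14-14-4, are given below also without them.

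The 10 genes were tested for 3 questions: the change on differentiation in each genotype, whether that change differed between genotypes, and the difference between genotypes at each stage. In TKO EB versus TKO ESC, 9 of the 10 genes rose (limma, adjusted p under 0.05), and Bmp4 did not pass the threshold. Of all 14365 genes, 2987 or 20.8% were higher in this comparison and 2145 or 14.9% lower. In WT EB versus WT ESC, 9 of the 10 genes rose, with Bmp7 as the gene that did not pass, against 3767 genes or 26.2% higher and 2493 genes or 17.4% lower among all genes. With quantile normalization the TKO comparison gave 2619 higher and 2768 lower genes, and with centring on array medians 2564 higher and 2580 lower. With quantile normalization the WT comparison gave 3027 higher and 3478 lower genes, and with centring on array medians 2989 higher and 3274 lower. None of the 10 genes fell in either genotype. The median log2 fold change of the 10 genes was 2.03 in TKO cells and 2.21 in WT cells, beside medians over all tested genes of 0.08 in TKO cells and 0.13 in WT cells. Without line Ta1-12, 5 of the 10 genes rose in TKO EB: Id1, Id2, Id3, Bmp2 and Bmp5, while Id4, Bmp7, Grem1 and Nog no longer passed. In that fit 13% of all genes were higher and 8.4% lower. Without the EB of Dutch and 14-14-4, 9 rose, beside 25.4% higher and 19.6% lower among all genes.

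Groups were also compared by whether their arrays overlapped. Each TKO EB array lay above each TKO ESC array for 9 of the 10 genes, all but Bmp4, which 22% of all tested genes also did. Each WT EB array lay above each WT ESC array for 8 of the 10 genes, all but Bmp7 and Nog, beside 35.4% of all tested genes. As these are whole cultures, fewer cells of a type and less RNA per cell cannot be told apart. The plot of intensities by array shows the values.

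**Figure D1:**
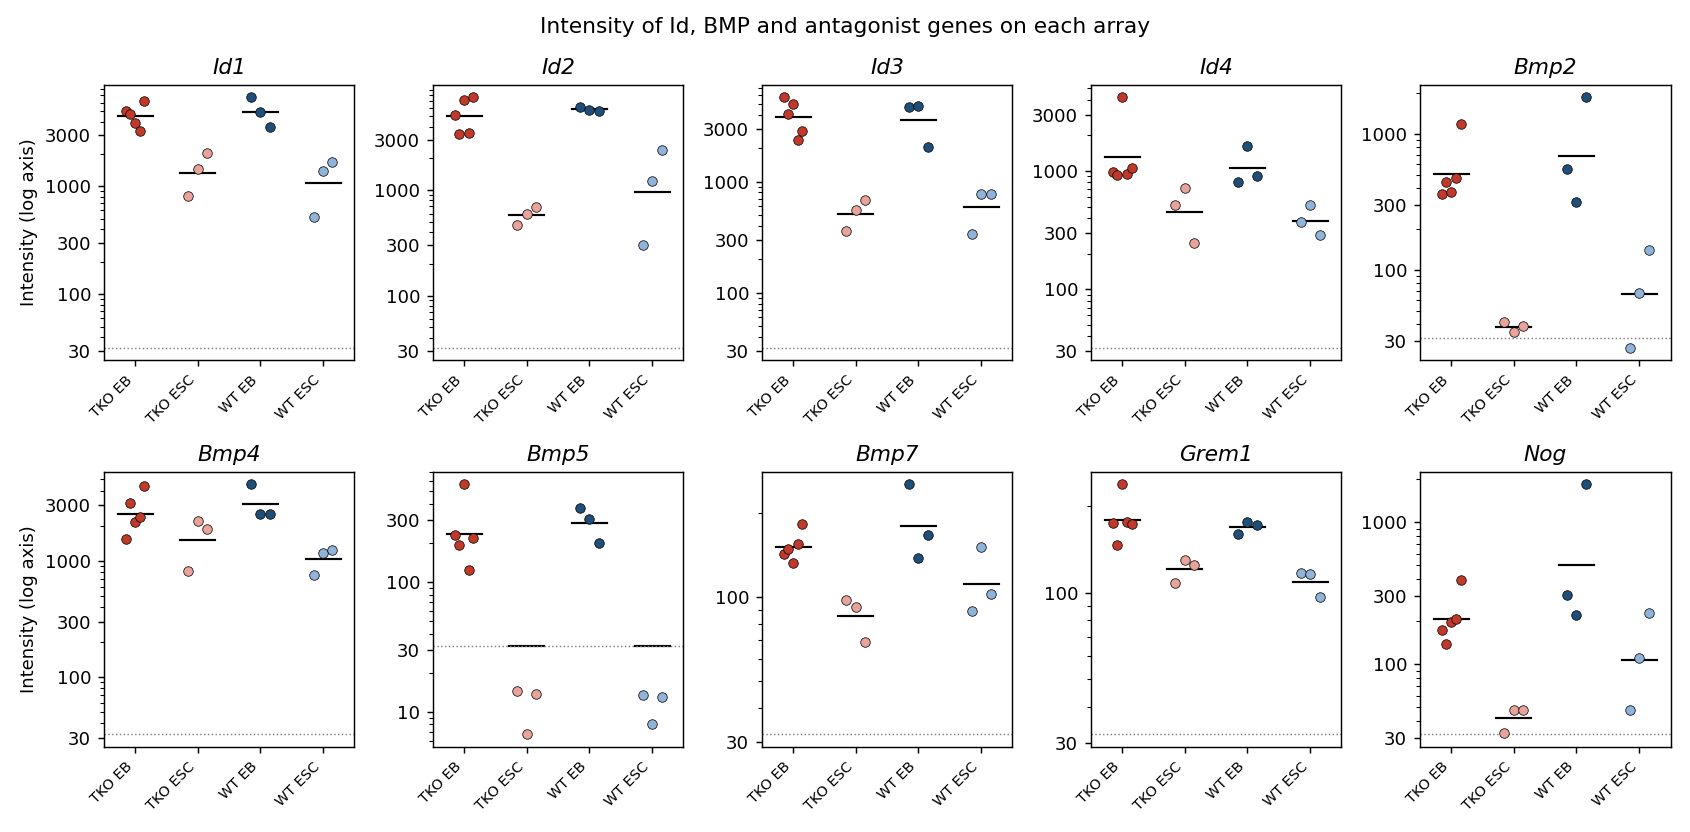
Intensity (log axis, arbitrary units as deposited) of the probe set that stands for each of the 10 genes, with 1 point per array in TKO EB (n = 5), TKO ESC (n = 3), WT EB (n = 3) and WT ESC (n = 3); bars are means of log2 values after the floor and the dotted line is the floor of 32. EB points lie above the ESC points of the same genotype except for Bmp4 in TKO cells and for Bmp7 and Nog in WT cells, and all 6 ESC points of Bmp5 lie under the floor.

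Of the ligands, Bmp2, which drives bone and heart formation, had the largest fitted fold change in both genotypes, those of Bmp5 being lower bounds. Its intensity was 359.6, 446.5, 374.5, 477 and 1177.4 in TKO EB (2-55-2, 14-14-4, 7-4-1, Dutch and Ta1-12), against 41.7, 35.5 and 38.9 in TKO ESC (7-4-1, Dutch and Ta1-12). In WT EB it was 549, 315.9 and 1847.4 (B21, J1 and R1), against 27, 67.8 and 140 in WT ESC. The groups did not overlap in either genotype, the TKO ESC arrays sat close to the floor, and the array labelled Ta1-12 and the R1 array stood highest among EB. The log2 fold change was 3.72 ± 0.58 (SE) in TKO cells (13.2-fold, adjusted p = 6.12e-04) and 3.35 ± 0.65 in WT cells (10.2-fold, adjusted p = 0.00189). WT ESC of B21 lay under the floor of 32, and the TKO ESC arrays lay near it and below their own 40th percentiles, so both folds depend on the floor: with a floor of 64 the TKO change was 2.99. Of its ESC arrays only J1 and R1 lay above their 40th percentile, fewer than the 3 that the filter needs. Bmp2 thus passed the filter only with its EB arrays. The summed intensity of visceral endoderm markers was highest on the same EB arrays as Bmp2, at 51313.3 in Ta1-12, 40939.2 in R1, 34403 in B21 and 23387 in Dutch, beside 7471.1 to 15682.3 on the other 4 EB arrays. Of the 6 markers, Amn did not follow the sum. It was 1230.7 in R1 and 577.4 in Ta1-12 EB, but 1169.6 in 14-14-4 EB beside 207.7 in Dutch and 106.9 in B21 EB. The part of these cells in the Bmp2 values was not tested. Without line Ta1-12 the change in TKO cells was 3.42 ± 0.65 (adjusted p = 0.0063).

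Bmp5, a ligand of skeletal and limb development, was under the floor of 32 on all 6 ESC arrays and above it on all 8 EB arrays. TKO EB had 231.5, 193.8, 567, 122.9 and 219.4 (2-55-2, 14-14-4, 7-4-1, Dutch and Ta1-12), and TKO ESC had 14.5, 6.7 and 13.8. WT EB had 374.1, 308 and 199 (B21, J1 and R1), and WT ESC had 13.5, 8 and 13. Because the ESC values are only bounded by the floor, EB were at least 7.28-fold higher in TKO cells (log2 2.86 ± 0.38, SE, adjusted p = 2.24e-04) and at least 8.88-fold higher in WT cells (log2 3.15 ± 0.42, adjusted p = 2.96e-04). Bmp5 passed the filter through its EB arrays only. After the floor its ESC arrays had no spread, so the SE and adjusted p do not measure variation among ESC. Both further probe sets of Bmp5 were also under the floor in ESC and rose in both genotypes, by 1.18 and 1.22 on the log2 scale in TKO cells and by 1.44 and 1.55 in WT cells. The 7-4-1 array was the highest and the Dutch array the lowest of the 8 EB arrays on the probe set that stands for the gene.

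Bmp4, the ligand known for mesoderm induction and for ESC self-renewal, was already present in ESC. TKO EB had intensities of 1525.9, 3120.5, 2141.2, 2390.6 and 4352.8 (2-55-2, 14-14-4, 7-4-1, Dutch and Ta1-12), and TKO ESC had 808.4, 2200.1 and 1888.3 (7-4-1, Dutch and Ta1-12). WT EB had 4554.6, 2534 and 2504.7, and WT ESC had 757.8, 1160.9 and 1236 (B21, J1 and R1). The TKO groups overlapped, with 2-55-2 and 7-4-1 EB below Dutch ESC, whereas the WT groups did not overlap. Bmp4 rose in WT EB by 1.58 ± 0.43 on the log2 scale (2.98-fold, adjusted p = 0.0106), and its value in TKO EB was 0.76 ± 0.38 (adjusted p = 0.136, 95% interval -0.06 to 1.59). That the WT change passed and the TKO change did not is no difference between them: the interaction was -0.81 ± 0.57 (adjusted p = 0.975, interval -2.05 to 0.42). Without WT EB of B21 the WT change was 1.29 (adjusted p = 0.051).

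Bmp7, a ligand of kidney and eye development, rose in TKO EB and did not pass in WT EB. TKO EB had 143, 148, 132.3, 154.5 and 183.2 (2-55-2, 14-14-4, 7-4-1, Dutch and Ta1-12), against 97.4, 91.8 and 69 in TKO ESC. WT EB had 254.1, 137.9 and 167.5, against 89, 151.6 and 102.3 in WT ESC (B21, J1 and R1). The WT groups overlapped because J1 was lower as EB than as ESC. The change was 0.83 ± 0.24 on the log2 scale in TKO cells (adjusted p = 0.0187) and 0.70 ± 0.27 in WT cells (adjusted p = 0.0537). The probe sets disagreed. Of the other 2, the first gave -0.02 in TKO cells and -0.57 in WT cells and the second 0.56 in TKO cells and 0.62 in WT cells, all 4 past no threshold. The TKO change was also lost with the cell line as a block (0.87 ± 0.37, adjusted p = 0.13) and without line Ta1-12 (0.61 ± 0.28, adjusted p = 0.147) or Ta1-12 ESC alone (0.68, adjusted p = 0.0935). The WT change passed without J1 EB (0.89, adjusted p = 0.0319) or J1 ESC (0.92, adjusted p = 0.0284).

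The antagonist Nog encodes Noggin, which the Spemann organizer and the notochord use to block BMPs. Its intensity was 173.2, 138.2, 197.1, 207.1 and 389.1 in TKO EB (2-55-2, 14-14-4, 7-4-1, Dutch and Ta1-12), against 32.9, 47.2 and 47.3 in TKO ESC. In WT EB it was 306, 220.3 and 1844.9 (B21, J1 and R1), against 47.4, 110.8 and 229.9 in WT ESC. R1 EB stood far above the other 7 EB arrays, and J1 EB lay just under R1 ESC, so that the WT groups overlapped. The TKO ESC arrays and B21 ESC lay below their own 40th percentiles, so Nog, like Bmp2, passed the filter only with its EB arrays. Nog rose by 2.31 ± 0.64 on the log2 scale in TKO cells (4.94-fold, adjusted p = 0.0146) and by 2.23 ± 0.72 in WT cells (4.69-fold, adjusted p = 0.0245). The WT change was 1.29 ± 0.57 (adjusted p = 0.0908) without R1 EB, 1.64 (adjusted p = 0.108) without B21 ESC and 2.26 (adjusted p = 0.0559) without J1 ESC. The WT call was also lost in a fit of only the groups compared (adjusted p = 0.0852). In TKO cells the change was 2.17 ± 0.78 (adjusted p = 0.0696) without line Ta1-12 and 2.13 (adjusted p = 0.0597) without 7-4-1 ESC. With a floor of 64 the TKO call was lost too (1.69 ± 0.62, adjusted p = 0.0542).

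Grem1 encodes Gremlin1, an antagonist of BMP2, BMP4 and BMP7 in limb and kidney. Its intensities were 174.8, 146.8, 239, 176.1 and 174 in TKO EB (2-55-2, 14-14-4, 7-4-1, Dutch and Ta1-12), against 108.5, 130.5 and 125.1 in TKO ESC. They were 160.2, 175.7 and 171.6 in WT EB, against 116.7, 116.4 and 96.3 in WT ESC (B21, J1 and R1). No EB array overlapped the ESC of its genotype, and 7-4-1 EB was the highest. The rise was 0.57 ± 0.18 on the log2 scale in TKO cells (1.49-fold, adjusted p = 0.0266) and 0.63 ± 0.20 in WT cells (1.55-fold, adjusted p = 0.0243). Quantile normalization and centring on array medians lowered the median change of all genes to -0.04 in TKO cells and -0.07 in WT cells, and Grem1 then missed the threshold in both genotypes, at 0.43 and 0.44 in TKO cells and 0.38 and 0.42 in WT cells. With the cell line as a block it was 0.68 ± 0.25 in TKO cells (adjusted p = 0.0905) and 0.63 ± 0.25 in WT cells (adjusted p = 0.0857). The TKO call was also lost without line Ta1-12 (0.61 ± 0.23, adjusted p = 0.0827) or any TKO ESC array (0.49 to 0.63, adjusted p up to 0.108). The WT call was lost without J1 EB (0.60, adjusted p = 0.0633), R1 EB (0.62, adjusted p = 0.0547) or R1 ESC (0.54, adjusted p = 0.0872).

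The promoters of 3 Id genes are printed because these genes rose together and are textbook Smad targets. Each sequence runs from 250 bases before the transcription start to 50 after it, 5′ to 3′ on the gene's strand, from RefSeq on build GRCm38.p6: Id2 at chr12:25096043-25096342 on the minus strand, Id3 at chr4:136143572-136143871 on the plus strand and Id4 at chr13:48260866-48261165 on the plus strand. Of the 10 genes, Id2, Id3, Id4, Bmp4, Bmp5 and Grem1 matched an entry, and Id1, Bmp2, Bmp7 and Nog did not. Capitals mark GGCGCC, a GC-rich element that Smad1 and Smad5 are known to bind.
Id2: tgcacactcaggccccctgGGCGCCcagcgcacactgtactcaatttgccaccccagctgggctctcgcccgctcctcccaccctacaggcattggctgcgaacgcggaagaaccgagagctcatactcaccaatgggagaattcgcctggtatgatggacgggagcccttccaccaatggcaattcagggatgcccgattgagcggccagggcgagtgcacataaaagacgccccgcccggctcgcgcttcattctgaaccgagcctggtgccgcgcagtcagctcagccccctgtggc
Id3: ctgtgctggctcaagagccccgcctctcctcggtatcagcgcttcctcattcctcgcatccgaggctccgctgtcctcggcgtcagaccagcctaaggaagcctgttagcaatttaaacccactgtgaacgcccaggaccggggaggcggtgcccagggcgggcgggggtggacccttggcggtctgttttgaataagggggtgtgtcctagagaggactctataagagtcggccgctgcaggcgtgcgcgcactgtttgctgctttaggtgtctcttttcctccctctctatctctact
Id4: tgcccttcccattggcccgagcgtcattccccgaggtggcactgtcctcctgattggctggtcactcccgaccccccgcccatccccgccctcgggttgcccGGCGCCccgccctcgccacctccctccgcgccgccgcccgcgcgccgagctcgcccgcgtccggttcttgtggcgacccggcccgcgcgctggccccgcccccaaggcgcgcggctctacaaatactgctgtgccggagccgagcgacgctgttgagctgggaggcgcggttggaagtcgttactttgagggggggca
The GC content was 63.3% for Id2, 60% for Id3 and 73.3% for Id4, beside a median of 52.7% over the 32851 promoters of the table. GGCGCC, which reads the same on both strands, occurred once in Id2 (first base 231 bases before the start), once in Id4 (148 bases before) and once in Grem1 (78 bases before), but not in Id3, Bmp4 or Bmp5. It was in 11.9% of all promoters in the table. The E2F-type motifs TTTCCCGC and TTTGGCGC, searched on both strands, were in none of the 6 promoters and in 1.1% and 0.5% of all promoters, and a TTTGGCGC followed by C would overlap GGCGCC. These matches describe letters in a window and were not tested for binding.

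Id1 was high in EB of both genotypes and lower, though measurable, in ESC. TKO EB had 5003.4, 4727.8, 3881.4, 3262.9 and 6249.7 (2-55-2, 14-14-4, 7-4-1, Dutch and Ta1-12), against 811.4, 1457.1 and 2053.4 in TKO ESC (7-4-1, Dutch and Ta1-12). WT EB had 6683.5, 4895 and 3571.2 (B21, J1 and R1), against 524, 1383.9 and 1678.5 in WT ESC. The lowest EB array, Dutch, stood above the highest ESC array, Ta1-12. Id1 rose by 1.75 ± 0.39 on the log2 scale in TKO cells (3.36-fold, adjusted p = 0.00448) and by 2.19 ± 0.43 in WT cells (4.58-fold, adjusted p = 0.0021). Without line Ta1-12 the TKO change was 1.94 ± 0.44 (adjusted p = 0.013), and without the EB of Dutch and 14-14-4 it was 1.88 ± 0.45 (adjusted p = 0.00621).

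Id2 rose in both genotypes on each of its 3 probe sets. TKO EB had 5110.7, 3400.1, 7197.8, 3504.2 and 7567.2 (2-55-2, 14-14-4, 7-4-1, Dutch and Ta1-12), against 464.1, 592.2 and 696.8 in TKO ESC. WT EB had 6155.5, 5724.9 and 5687, against 303.8, 1232.2 and 2413.6 in WT ESC (B21, J1 and R1). The WT ESC arrays spread widely while the WT EB arrays nearly coincided, and 14-14-4 and Dutch, the TKO EB arrays with the highest pluripotency sums, were the lowest of all EB. Id2 rose by 3.13 ± 0.51 on the log2 scale in TKO cells (8.78-fold, adjusted p = 7.66e-04) and by 2.60 ± 0.57 in WT cells (6.05-fold, adjusted p = 0.00356). Its other probe sets rose too, by 3.44 and 1.37 in TKO cells and by 2.93 and 1.47 in WT cells. Without the EB of Dutch and 14-14-4 the TKO change was 3.5 ± 0.56 (adjusted p = 5.66e-04), and without line Ta1-12 it was 3.13 ± 0.63 (adjusted p = 0.00764).

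Id3, which is often induced together with Id1, rose in both genotypes. TKO EB had 5725.6, 4063.5, 5001.5, 2369.5 and 2881.8 (2-55-2, 14-14-4, 7-4-1, Dutch and Ta1-12), against 362, 555.1 and 680.5 in TKO ESC. WT EB had 4725.1, 4807.7 and 2047.9, against 339.9, 771.7 and 777.7 in WT ESC (B21, J1 and R1). The lowest EB arrays were R1 and Dutch, and EB overlapped ESC in neither genotype. The rise was 2.88 ± 0.39 on the log2 scale in TKO cells (7.38-fold, adjusted p = 2.69e-04) and 2.61 ± 0.44 in WT cells (6.11-fold, adjusted p = 9.11e-04). Without line Ta1-12 it was 3.18 ± 0.47 in TKO cells (adjusted p = 0.00203).

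Id4, the Id gene best known from neural and mammary progenitors, rose in both genotypes, with 1 array far above the rest. TKO EB had 981.5, 918.7, 4187, 949.8 and 1053.3 (2-55-2, 14-14-4, 7-4-1, Dutch and Ta1-12), against 519.8, 723 and 244.8 in TKO ESC. WT EB had 812.2, 1620.4 and 903.9, against 367.1, 518.4 and 289.4 in WT ESC (B21, J1 and R1). The 7-4-1 EB array also had the highest summed intensity of 6 neural markers, 7859.8 beside 860.6 to 4744.1 on the other TKO EB arrays, and J1 EB, the highest for Id4 among WT EB, had 4798.7 beside 1068.6 and 1353.1 on the other WT EB arrays. In ESC the neural sum was 1825.7 to 2013.8 in TKO lines and 1519.6 to 2525.3 in WT lines. Several EB arrays lay below these values, so the sum does not mark neural cells alone. The 2-55-2 EB array had a sum of 4744.1, near that of J1 EB, with an Id4 intensity of 981.5. The part of neural cells in the Id4 values was not tested. Id4 rose by 1.53 ± 0.50 on the log2 scale in TKO cells (2.89-fold, adjusted p = 0.0316) and by 1.48 ± 0.56 in WT cells (2.78-fold, adjusted p = 0.0493). Both further probe sets rose in TKO cells (1.55 and 2.02) and in WT cells (1.58 and 2.38). The WT call was at the threshold and was lost under 18 of 24 alternatives, among them without any 1 WT array (1.17 to 1.70, adjusted p up to 0.157). The TKO call was lost under 5 of 24, among them without line Ta1-12 (1.17 ± 0.57, adjusted p = 0.168), without Ta1-12 ESC alone (1.09, adjusted p = 0.162) and without 7-4-1 ESC (1.63, adjusted p = 0.0659). Without 7-4-1 EB it kept its call.

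**Figure D2:**
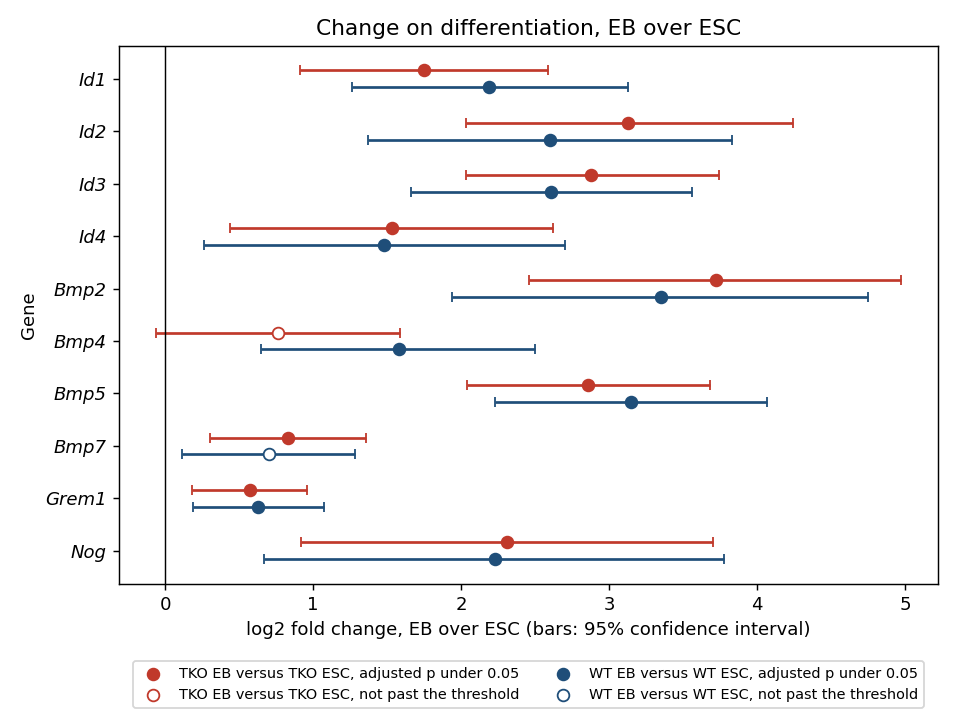
Log2 fold change of EB over ESC for each of the 10 genes in TKO cells (upper marker of each pair) and WT cells (lower marker), with 95% confidence intervals from limma. Filled markers passed an adjusted p of 0.05, and the intervals of the genotypes overlap for each gene.

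Within the 6 lines measured at both stages, the log2 difference of EB minus ESC was above 0 in 59 of 60 values, all but Bmp7 in J1 (-0.14). The same share was not counted over all genes. Among all tested genes the median change was 0.08 in TKO cells and 0.13 in WT cells. Every EB array lay above every ESC array for 22% of all genes in TKO cells and 35.4% in WT cells. Lines of 1 genotype differed from each other as much as the genotypes did. For Id1, the change was 2.26, 1.16 and 1.61 in TKO lines 7-4-1, Dutch and Ta1-12, and 3.67, 1.82 and 1.09 in WT lines B21, J1 and R1. For Id2 it was 3.96, 2.56 and 3.44 in the TKO lines and 4.34, 2.22 and 1.24 in the WT lines, in the same line order. For Id3 it was 3.79, 2.09 and 2.08 in the TKO lines and 3.80, 2.64 and 1.40 in the WT lines. B21 was the WT line with the largest change of Id1, Id2, Id3, Bmp2, Bmp4, Bmp5 and Bmp7, and 7-4-1 the TKO line with the largest change of Id1, Id2, Id3, Id4, Bmp4, Bmp5 and Grem1. In WT ESC, B21 had the lowest intensity of Id1, Id2, Id3, Bmp2, Bmp4, Bmp7 and Nog, and R1 the highest of Id1, Id2, Id3, Bmp2, Bmp4 and Nog. The summed intensity of the mesenchyme markers in WT ESC was likewise 220.2 in B21, 638.9 in J1 and 670.9 in R1, and that of the pluripotency markers 71092.7 in B21, 63024.1 in J1 and 53163.1 in R1, and their part in the Id and Bmp values was not tested. Dutch was the TKO line with the smallest change of Id1, Id2, Id4, Bmp4, Bmp5, Grem1 and Nog.

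**Figure D3:**
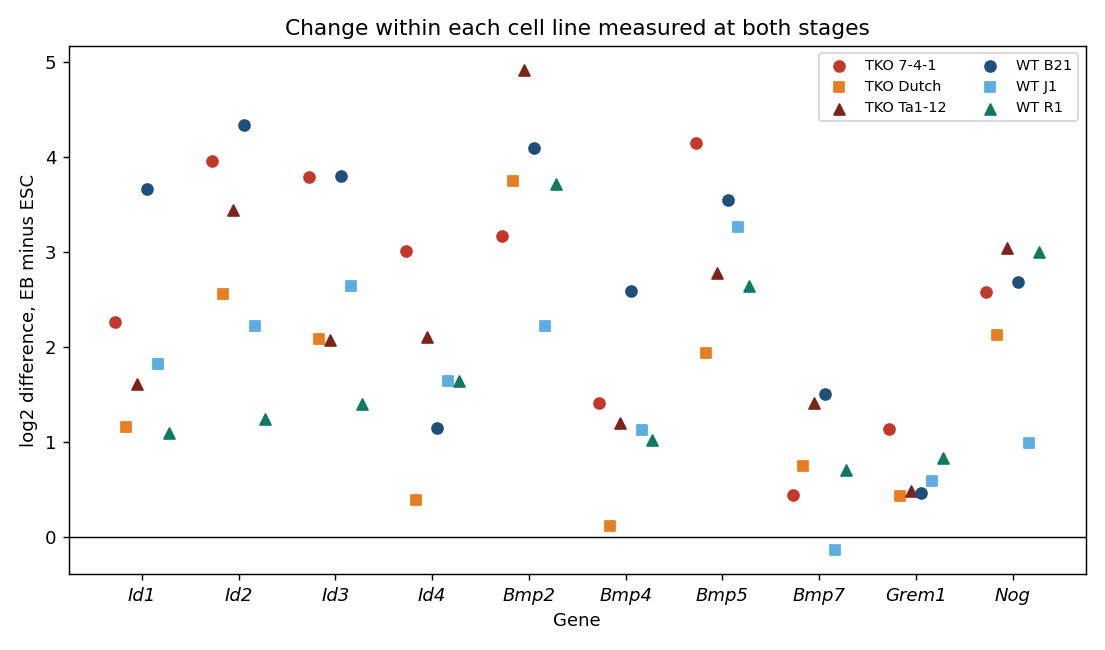
Log2 difference of EB minus ESC after the floor of 32 for each of the 10 genes, with 1 point per cell line measured at both stages (TKO 7-4-1, Dutch and Ta1-12 left of WT B21, J1 and R1 within each gene). All 60 points but Bmp7 in J1 lie above 0, and the TKO and WT points are interspersed.

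Whether the change on differentiation differed between TKO and WT cells was tested as the interaction of genotype and stage. None of the 10 genes passed, and the share of all tested genes past the threshold was 0%. At an unadjusted p under 0.05 the count was 0 of the 10 genes and 522 of the 14365. The interaction was closest to 0 for Id4 (0.05 ± 0.76, SE), Grem1 (-0.06 ± 0.27) and Nog (0.08 ± 0.96), and farthest from it for Bmp4 (-0.81 ± 0.57). For the remaining Id genes it was -0.45 ± 0.58 (Id1), 0.54 ± 0.76 (Id2) and 0.27 ± 0.59 (Id3). Most of these intervals reach beyond 1 on the log2 scale in some direction, as that of Id2 from -1.12 to 2.19 does, so differences of that size were not detectable with these arrays. The interval of Grem1 was the narrowest, -0.64 to 0.53. Bmp5 lay under the floor on all ESC arrays, so its interaction (-0.29 ± 0.57) only repeats its difference between TKO EB and WT EB.

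The genotypes were also compared at each stage. In TKO EB versus WT EB, none of the 10 genes and 0% of all genes passed, with 0 of the 10 genes and 2034 of the 14365 at an unadjusted p under 0.05. In TKO ESC versus WT ESC, none of the 10 genes and 0% of all genes passed, with 0 of the 10 genes and 394 of the 14365 at an unadjusted p under 0.05. Bmp5 could not differ there: all its ESC arrays lay under the floor, which set its ESC difference to 0. Without line Ta1-12, 388 genes were higher and 713 lower in TKO EB versus WT EB, and none of the 10 was among them. In EB the Id genes lay close to 0, at -0.12 ± 0.39 (Id1, SE), -0.21 ± 0.51 (Id2), 0.08 ± 0.39 (Id3) and 0.30 ± 0.50 (Id4) for TKO over WT. Their 95% intervals ran from -0.96 to 0.73 for Id1, from -1.31 to 0.89 for Id2, from -0.77 to 0.93 for Id3 and from -0.79 to 1.39 for Id4. The ligands were at -0.43 ± 0.58 (Bmp2), -0.27 ± 0.38 (Bmp4), -0.29 ± 0.38 (Bmp5) and -0.25 ± 0.24 (Bmp7), and Grem1 at 0.09 ± 0.18.

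Nog had the largest genotype difference of the 10 genes at both stages, without passing the threshold. TKO over WT was -1.27 ± 0.64 on the log2 scale in EB (adjusted p = 0.379, 95% interval -2.66 to 0.12) and -1.35 ± 0.72 in ESC (adjusted p = 1, interval -2.90 to 0.21). The EB difference moved with R1: leaving out 1 array at a time gave -1.86 to -0.33, and the value nearest 0 was that without R1 EB. In ESC, the 2 largest differences after Nog were -0.80 ± 0.65 for Bmp2 and -0.75 ± 0.57 for Id2, both at an adjusted p of 1. In ESC the TKO arrays of Bmp2 (35.5 to 41.7) and Id2 (464.1 to 696.8) lay inside the wider WT ranges (27 to 140 and 303.8 to 2413.6). The 4 group levels thus fell into 2 tiers for most of these genes, EB above ESC, with TKO and WT neighbours within a tier not separated beyond their spread.

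**Figure D4:**
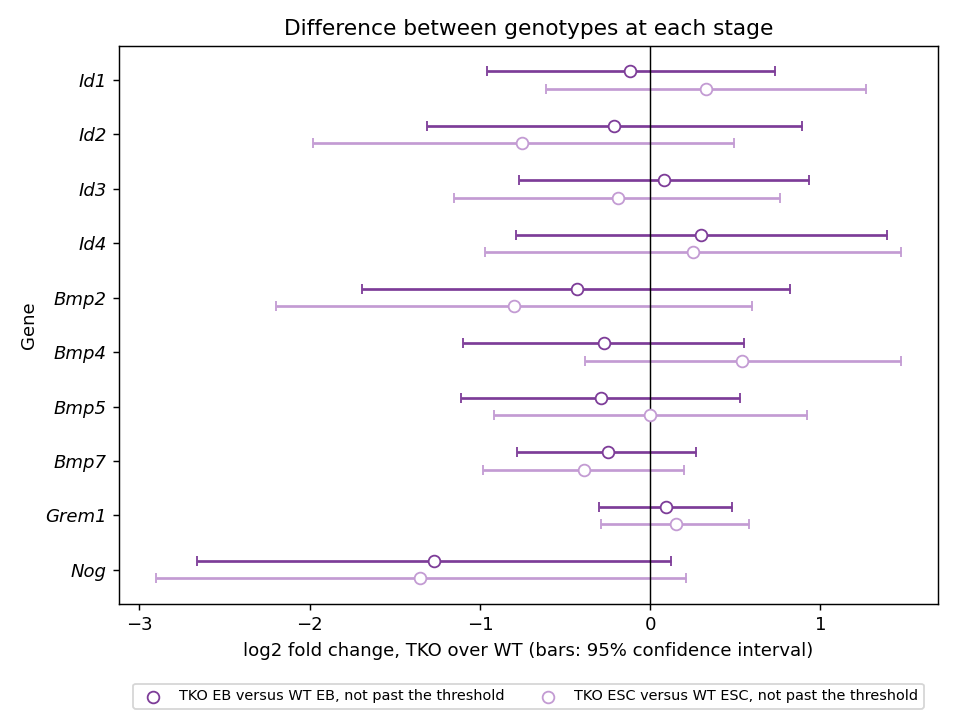
Log2 fold change of TKO over WT for each of the 10 genes in EB (upper marker of each pair) and in ESC (lower marker), with 95% confidence intervals from limma. All markers are open because none passed an adjusted p of 0.05. The intervals all include 0, and Nog lies farthest to the left at both stages. The ESC marker of Bmp5 lies at 0 because the floor set all its ESC arrays to the same value.

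The rest of the pathway was taken from a list of 51 other genes, of which 42 were tested. In TKO EB versus TKO ESC, 20 rose and 1 fell, beside 20.8% higher and 14.9% lower among all genes. In WT EB versus WT ESC, 19 rose and 3 fell, beside 26.2% higher and 17.4% lower. The median log2 fold change of the 42 was 0.80 in TKO cells and 0.66 in WT cells. Without the EB of Dutch and 14-14-4, 23 rose and 5 fell in TKO cells, beside 25.4% higher and 19.6% lower among all genes. Without line Ta1-12, 15 rose and 0 fell, beside 13% higher and 8.4% lower. None of the 42 passed in the interaction, in TKO EB versus WT EB or in TKO ESC versus WT ESC, and 0, 3 and 2 had an unadjusted p under 0.05 there.

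Among 5 other tested ligands, none passed in TKO cells, and Bmp6 rose and Bmp8b fell in WT cells. Bmp6, a regulator of iron balance, was at 1.95 ± 0.64 (SE) on the log2 scale in WT cells (adjusted p = 0.0266) and at 1.17 ± 0.57 in TKO cells (adjusted p = 0.13). The WT call was lost without B21 EB, R1 EB, B21 ESC or J1 ESC (1.55 to 1.82, adjusted p up to 0.0973). It was also lost with a floor of 64 (1.45, adjusted p = 0.068). The TKO value passed without the EB of Dutch and 14-14-4 (1.64, adjusted p = 0.0494). Bmp8b, a germ cell ligand, was at -0.26 ± 0.57 in TKO cells (adjusted p = 0.746) and fell by 1.72 in WT cells (adjusted p = 0.0447), a call lost under 11 of 24 alternatives, among them the cell line as a block (adjusted p = 0.0662) and leaving out any WT EB array, J1 ESC or R1 ESC (-1.97 to -1.21, adjusted p up to 0.169). Gdf2, the endothelial ligand BMP9, was at 0.14 ± 0.15 in TKO cells and 0.07 ± 0.17 in WT cells, and turned sign in WT cells under both other scalings.

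Of 10 receptors and co-receptors, 4 rose and 1 fell in TKO cells, and 5 rose and 1 fell in WT cells. The type I receptor Bmpr1a rose by 1.22 ± 0.18 on the log2 scale in TKO cells (adjusted p = 4.07e-04) and by 1.30 ± 0.20 in WT cells (adjusted p = 5.73e-04). Acvr1, another type I receptor, rose by 2.08 ± 0.34 in TKO cells (adjusted p = 8.50e-04) and by 2.5 ± 0.38 in WT cells (adjusted p = 5.84e-04). Its intensity was 1018.8, 983.2, 1271.1, 613.4 and 1886 in TKO EB (2-55-2, 14-14-4, 7-4-1, Dutch and Ta1-12) and 1965.6, 1784.2 and 3328.3 in WT EB (B21, J1 and R1). The array labelled Ta1-12 lay within the WT range and the other 4 TKO EB arrays below it. Without line Ta1-12, Acvr1 was the 1 pathway gene that passed in TKO EB versus WT EB (-1.27 ± 0.32, adjusted p = 0.036), and it was singled out after its values were seen. In that fit 2.7% of all genes were higher and 4.96% lower. Bmpr2 and Acvr2a, type II receptors, also rose in both genotypes, and Acvr2b, a type II receptor that also binds activins, was at -0.69 ± 0.31 in TKO cells (adjusted p = 0.103) and fell by 1.57 in WT cells (adjusted p = 0.00384). The gene that fell in TKO cells was Eng, the co-receptor endoglin, at -0.69 ± 0.25 in TKO cells (adjusted p = 0.046) and -0.70 ± 0.28 in WT cells (adjusted p = 0.0576), with an interaction of 0.01 ± 0.38.

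Of the 4 Smads, 3 rose in each genotype. Smad5 rose by 1.62 ± 0.25 on the log2 scale in TKO cells (adjusted p = 5.43e-04) and 1.45 ± 0.28 in WT cells (adjusted p = 0.00177), and the shared partner Smad4 by 0.53 ± 0.11 in TKO cells (adjusted p = 0.00371) and 0.53 ± 0.13 in WT cells (adjusted p = 0.00584), though in WT cells not with centring on array medians (0.32, adjusted p = 0.0789). Smad1 rose in both genotypes, and Smad9 was at -0.50 in each without passing. Of 5 intracellular inhibitors, 4 rose in TKO cells and 3 in WT cells. Bambi, a pseudoreceptor that blocks type I receptors, rose by 2.47 ± 0.34 in TKO cells (adjusted p = 2.70e-04) and 2.37 ± 0.38 in WT cells (adjusted p = 6.87e-04). The inhibitory Smad6 rose by 1.02 ± 0.20 in TKO cells (adjusted p = 0.0026) and 1.16 ± 0.23 in WT cells (adjusted p = 0.00209). Smad7, also an inhibitory Smad, was at -0.67 ± 0.25 in TKO cells (adjusted p = 0.0544) and -0.52 ± 0.28 in WT cells (adjusted p = 0.15). Smad6, Smad7 and Bambi, like the Id genes, are known as BMP target genes.

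Of 11 other tested extracellular antagonists, 5 rose in TKO cells, and 5 rose and 1 fell in WT cells. Twsg1, which binds BMPs together with Chordin, rose by 1.54 ± 0.21 on the log2 scale in TKO cells (adjusted p = 2.54e-04) and 1.56 ± 0.23 in WT cells (adjusted p = 5.06e-04). Bmper, a BMP-binding endothelial regulator, rose by 3.29 ± 0.63 in TKO cells (adjusted p = 0.00201) and 5 ± 0.70 in WT cells (adjusted p = 3.64e-04). Its intensities were 500.9, 246.5, 404, 132.2 and 957.7 in TKO EB (2-55-2, 14-14-4, 7-4-1, Dutch and Ta1-12) and 503, 659 and 3223.3 in WT EB (B21, J1 and R1). R1 EB was thus the highest EB array for Bmper, as for Nog and Bmp2, and Ta1-12 EB the highest of the TKO EB arrays. TKO ESC had 48.9, 32.6 and 23.4 (7-4-1, Dutch and Ta1-12), and WT ESC lay under the floor at 18, 16.9 and 24.4, so the changes in both genotypes are lower bounds and are not set against each other. Fst, Sostdc1 and Nbl1 also rose in both genotypes, Chrd, encoding Chordin, passed in neither, and the gene that fell in WT cells was Sost, the bone antagonist sclerostin, at -0.22 ± 0.22 in TKO cells (adjusted p = 0.469) and -0.81 ± 0.25 in WT cells (adjusted p = 0.0207). Sostdc1 lay under the floor on all ESC arrays, so its changes are lower bounds too. Bmper and Sostdc1 passed the filter through EB arrays only.

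Of 4 other tested target genes, 3 rose in TKO cells and none passed in WT cells, and none passed in the interaction. The homeobox gene Msx2 rose by 1.97 ± 0.55 on the log2 scale in TKO cells (adjusted p = 0.015) and was at 0.60 ± 0.62 in WT cells (adjusted p = 0.448), with an interaction of 1.37 ± 0.83 (adjusted p = 0.975). Its relative Msx1 rose by 2.38 ± 0.72 in TKO cells (adjusted p = 0.0219) and was at 1.43 ± 0.81 in WT cells (adjusted p = 0.165). Hey1, a bHLH repressor of the Notch and BMP pathways, rose by 1.49 ± 0.51 in TKO cells (adjusted p = 0.0367) and was at 1.05 ± 0.57 in WT cells (adjusted p = 0.149). With the cell line as a block, Msx2 (1.68, adjusted p = 0.0912) and Msx1 (2.27, adjusted p = 0.0568) no longer passed in TKO cells. Msx2 was also lost without the EB of Dutch and 14-14-4 (1.5 ± 0.58, adjusted p = 0.0557) or Dutch ESC (1.80, adjusted p = 0.0631), and Msx1 without line Ta1-12 (2.53 ± 0.85, adjusted p = 0.055), Ta1-12 ESC (2.22, adjusted p = 0.0792) or Dutch ESC (2.35, adjusted p = 0.0658). With a floor of 64 (1.71, adjusted p = 0.087) and in a fit of only the groups compared (adjusted p = 0.0673), Msx1 was lost in TKO cells too. In WT cells Msx1 passed without 7-4-1 EB (1.43, adjusted p = 0.0316) and in a fit of only the groups compared (adjusted p = 0.0133). Hey1 lost its call under 9 of 24 alternatives, among them without any TKO ESC array or without 2-55-2, 7-4-1 or Ta1-12 EB (1.23 to 1.56, adjusted p up to 0.103). Dlx5, an osteoblast factor, was at 0.10 ± 0.16 in TKO cells and 0.36 ± 0.18 in WT cells, passing in neither, though it passed in WT cells with a floor of 64 (0.36, adjusted p = 0.048).

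The 3 E proteins that Id proteins bind were tested. Tcf12, or HEB, rose by 2.49 ± 0.31 on the log2 scale in TKO cells (adjusted p = 1.68e-04) and 2.22 ± 0.35 in WT cells (adjusted p = 6.61e-04). Tcf4, or E2-2, was at 0.87 ± 0.35 in TKO cells (adjusted p = 0.0729) and rose by 1.04 ± 0.40 in WT cells (adjusted p = 0.0483), a call lost under 17 of 24 alternatives, among them the cell line as a block (adjusted p = 0.0788). Its TKO value passed without the EB of Dutch and 14-14-4 (1.32 ± 0.30, adjusted p = 0.00436). Tcf3, the E2A gene, was at -0.06 ± 0.21 in TKO cells and -0.20 ± 0.24 in WT cells.

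**Figure D5:**
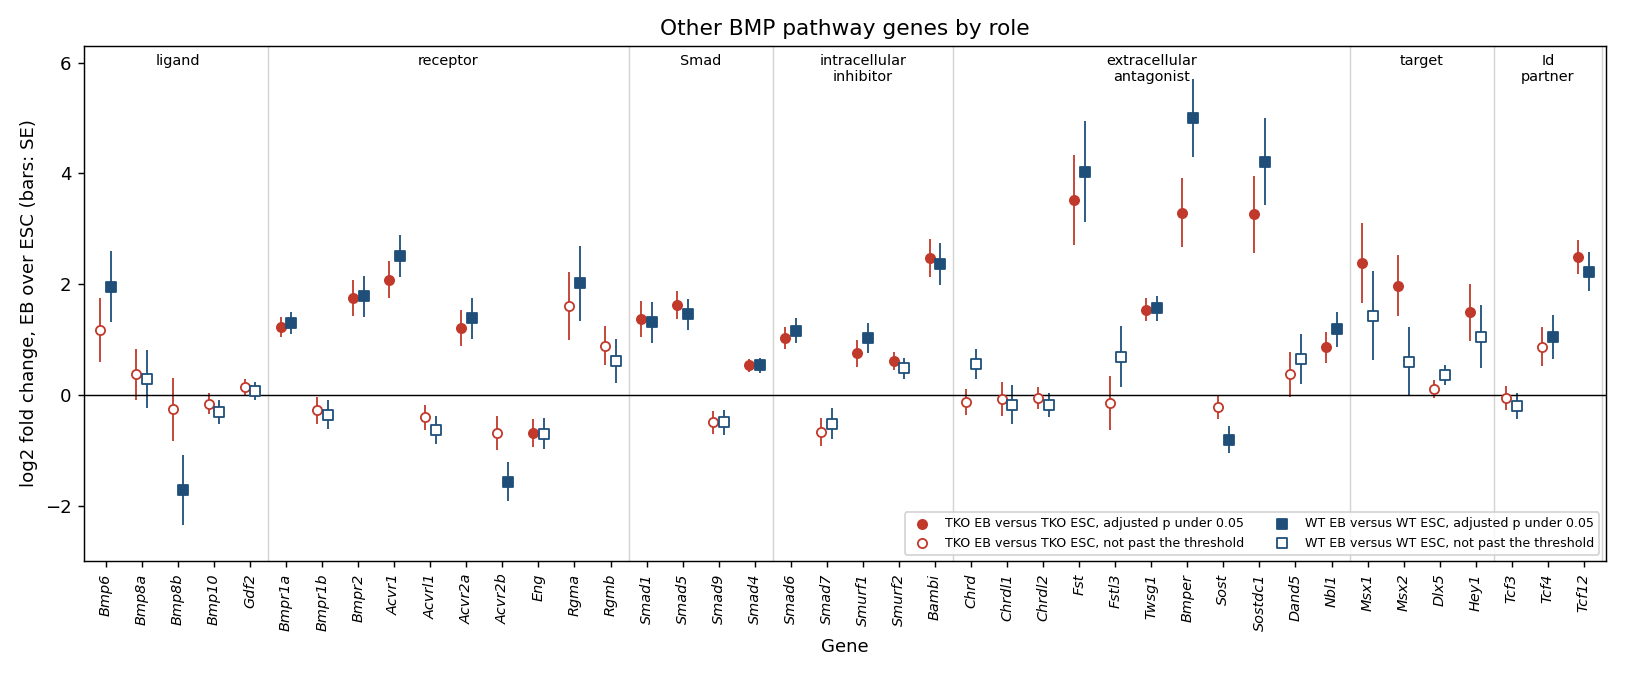
Log2 fold change of EB over ESC (bars are SE from limma) for 42 other BMP pathway genes ordered by role, with TKO cells as circles left of WT cells as squares. Filled markers passed an adjusted p of 0.05. The largest fitted values are those of the antagonists Bmper, Sostdc1 and Fst, those of Bmper and Sostdc1 being lower bounds. The targets Msx1, Msx2 and Hey1 are filled for TKO cells only.

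The 10 genes did not vary alike among EB. Over all 14 arrays their log2 values correlated at Pearson r of 0.41 to 0.95 for every pair, and all share the step between stages. Over the 8 EB arrays alone, r was 0.90 for Id4 with Grem1 and 0.89 for Bmp2 with Nog, but -0.78 for Id3 with Bmp2 and -0.68 for Id3 with Nog. For Id1 with Id2 it was 0.42 and for Id1 with Id3 0.47. These values describe 8 EB arrays of 8 lines that share a stage and a platform.

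The tested genes with the pattern most like each of the 10 over the 14 arrays were found by Pearson r of log2 values. Clone names (symbols ending in Rik, or starting with LOC or with Gm and a digit) were left out. Bmp5 was followed most closely by Sema3a (r = 0.995), Zfp503 (0.993) and Nfia (0.991), and over the 8 EB arrays r was 0.946, 0.949 and 0.897. Id2 was followed by Efnb2 (0.986), Irs1 (0.984) and Gnas (0.984), but over the EB arrays r was 0.740, 0.617 and 0.747. Id3 was followed by Ssbp2 (0.984), Lgals1 (0.983) and Igdcc4 (0.979), and Id1 by Pdgfc (0.965), Jund (0.952) and Mmp14 (0.952). Nog was followed by Flt1 (0.976), Pxdc1 (0.957) and Gdf9 (0.953), and over the EB arrays r was 0.945, 0.896 and 0.970. Bmp2 was followed by Tmem30a (0.981), Crim1 (0.975) and Cobll1 (0.974). Crim1 encodes a membrane protein known to bind BMPs. Id4 was followed by Dmgdh (0.933), Hdac2 (0.921) and Hoxb4 (0.915), Bmp4 by Use1 (0.900), Acot2 (0.898) and Tmem134 (0.880), Bmp7 by Mbp (0.924), Abca9 (0.922) and Stom (0.919), and Grem1 by Gnb4 (0.949), Mrpl14 (0.941) and Cdc16 (0.931). These are the highest correlations of each gene over that set, drawn from the 14365 tested genes, on arrays that share a stage.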

How the data were processed

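Total RNA extracted with Trizol was labelled with biotin and run on Affymetrix arrays (from the labels' protocols). As deposited, values are linear intensities of 45101 probe sets on 14 arrays, already summarised by the authors, and their background correction and scaling are not stated there. No scaling was added, although log2 array medians spanned 0.374. Intensities under 32 were raised to 32 and log2 was taken, so folds of genes under this floor are understated. Probe sets were named from the platform annotation: 34958 had 1 gene symbol, 932 several and 9211 none. The probe set with the highest mean log2 value stood for a gene, and was tested if it passed the 40th percentile of 3 or more arrays.

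Groups came from the sample titles, whose lines the series text calls biological replicates. Group means were estimated jointly from the 14 arrays in limma 3.58.1 (R 4.3.3; eBayes with a trend), and the Benjamini-Hochberg adjustment ran over 14365 genes in each of the 5 comparisons (threshold 0.05). Probe sets beside the one of a gene were adjusted over 31122 probe sets. The script was tested on simulated data. The 10 genes, the pathway list and the markers were chosen with earlier results of these data known. Named pathway genes were those with the 2 smallest adjusted p per role in each stage comparison, and any others were named after their values were seen. The 6 lines measured at both stages pair their 12 arrays. The correlation of deviations between the stages of a line was 0.066 to 0.196 in TKO lines and -0.078 to -0.037 in WT lines.

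Alternatives were floors of 16 and 64, quantile normalization, centring on array medians, no filter, only the groups compared, no trend, the cell line as a replicate block, leaving out each array, leaving out line Ta1-12 or the EB of Dutch and 14-14-4, and each further probe set. Genes of the pathway list that were not tested had no probe set of a single symbol or lay below the filter.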

Additional observations from a re-analysis of the deposited data

Results flagged for a closer look

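On 2 TKO EB arrays a gene stood far from the other 4 arrays of the group. Id4 had an intensity of 4187 on the 7-4-1 array, and on the log2 scale its gap to the nearest array was 0.91 of the group's range, above Dixon's 95% critical value of 0.71. Bmp2 had an intensity of 1177.4 on the array labelled TKO Ta1-12, where the gap was 0.762 of the range. The 10 genes were each examined in this group only, since the other groups hold 3 arrays, and chance gives such a gap in about 1 of 20 groups.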

How the results depend on the processing

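Of 446 values of the called member changes under the alternatives, 396 kept direction and call, 49 lost the call and 1 turned sign. Of 764 values of uncalled ones, 4 gained a call and 53 turned sign. Causes were not tested. Among all genes, TKO EB versus TKO ESC gave 2987 higher and 2145 lower, but 2070 and 1091 with the cell line as a replicate block and 1861 and 1207 without line Ta1-12. Without that line the interaction had 0 higher and 5 lower genes, none of them a member, and TKO EB versus WT EB had 388 and 713. A fit of only the groups compared gives no interaction, and the block gives no comparison of genotypes. The count of members past the threshold in TKO EB versus TKO ESC was 5 without line Ta1-12, and 6 to 9 when 1 array was left out. In WT EB versus WT ESC it was 6 to 9 when 1 array was left out. The share of all genes past the threshold was not counted in the fits that left out 1 array. For other pathway genes in TKO EB versus WT EB the count was 1 without line Ta1-12 and 0 to 1 when 1 array was left out. With the cell line as a replicate block the member counts were 7 in TKO cells and 8 in WT cells, with 0 in the interaction. Among all genes the block gave 14.4% higher and 7.59% lower in TKO cells, 22.9% higher and 14.5% lower in WT cells, and 0% in the interaction. Apart from the block values given above it changed no other call of a member or named pathway gene.

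Values that turned sign were these log2 values, of which only Bmp7 in TKO cells had been called. With a floor of 64, the interaction was -0.03 for Bmp2 and -0.39 for Nog. With quantile normalization, the interaction of Grem1 was 0.05, Dlx5 in TKO cells -0.04 and Gdf2 in WT cells -0.14, and with centring on array medians these were 0.02, -0.03 and -0.14. With the block, the interaction of Grem1 was 0.05 and Bmp8b in TKO cells 0.10. Without line Ta1-12, the interaction was -0.31 for Id4, -0.09 for Bmp7 and -0.06 for Nog, and Bmp8b in TKO cells was 0.17. Without the EB of Dutch and 14-14-4, the interaction was 0.11 for Bmp5 and 0.05 for Grem1, and TKO EB versus WT EB was 0.02 for Id1, 0.16 for Id2 and 0.11 for Bmp5. On further probe sets, Bmp7 was -0.02 in TKO cells and -0.57 in WT cells, the interaction was -0.10 for Id2, -0.03 and -0.36 for Id4 and -0.06 for Bmp7, TKO EB versus WT EB was 0.06 for Id2 and 0.16 for Bmp7, and TKO ESC versus WT ESC was 0.15 for Id2. Ranges that crossed 0 when 1 array was left out were in the interaction -0.16 to 0.04 for Grem1, -0.39 to 0.39 for Id4, -0.51 to 1.02 for Nog, -0.09 to 0.38 for Bmp7, -0.19 to 1.09 for Bmp2, -0.13 to 0.67 for Id3, -0.81 to 0.07 for Id1, -0.12 to 1.37 for Id2. They were in TKO EB versus WT EB -0.33 to 0.29 for Id3, -0.12 to 0.61 for Id4, -0.01 to 0.16 for Grem1, -0.34 to 0.11 for Id1, -0.47 to 0.01 for Bmp4, -0.99 to 0.29 for Bmp2. They were in TKO ESC versus WT ESC -0.59 to 0.06 for Id3, -0.09 to 0.69 for Id4, -0.18 to 0.70 for Id1. They were in TKO EB versus TKO ESC -0.66 to 0.25 for Bmp8b. They were in WT EB versus WT ESC -0.09 to 1.01 for Msx2.

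The number of lines, 3 or 5 in a group, limits the precision. Bmp5 in ESC lay under the floor and has only a bound there, and the changes of Bmp2 and Nog, near the floor in TKO ESC, depend on it. The call of Nog in TKO cells was lost with a floor of 64.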
